A study of Homo sapiens with 10 samples.

Results

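The genes examined encode 10 inhibitors that EGF signalling turns on against itself: the receptor-level inhibitors ERRFI1 and LRIG1, the Sprouty proteins SPRY1, SPRY2 and SPRY4, the SPRED proteins SPRED1 and SPRED2, and the MAP kinase phosphatases DUSP4, DUSP5 and DUSP6. They were chosen by name, and each was studied over a window of its gene body plus 50 kb to each side, so that they make up 10 of the 20090 protein-coding gene windows. HER2 binding was mapped by ChIP-exo, a ChIP with exonuclease trimming that narrows the bound sites, and the enhancer mark H3K4me1 by ChIP-seq, in the human breast cancer lines SKBR3 and BT474. Both are established lines with an amplified ERBB2 locus, the gene of HER2. HER2 was mapped in asynchronous cells given water (vehicle) or EGF at 100 ng/ml for 3 hours, with 1 peak list for each condition and line, so that no difference under EGF has a replicate check. H3K4me1 was mapped in 2 replicates of each line, in cells that the labels call asynchronous and the study's text calls EGF-treated. Differences in H3K4me1 are therefore between 2 cell lines and not between treatments. No label says whether the replicates were separate cultures, so the p-values measure the spread between these libraries, which may be technical.

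When EGF activates its receptor, the signal passes from EGFR and its partner HER2 through RAS, RAF and MEK to the kinase ERK. ERK activity in turn raises the expression of proteins that switch the pathway off. ERRFI1 (MIG6) binds the kinase domain of the receptor and LRIG1 promotes removal of the receptor from the cell surface. Sprouty and SPRED proteins act between receptor, RAS and RAF, and the DUSP phosphatases remove the activating phosphates from ERK. H3K4me1 marks enhancers and the flanks of promoters, whether or not they are in use.

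The H3K4me1 libraries held between 15097156 and 18713926 reads in islands, the stretches in which SICER found more reads than in the input. The smallest islands held 20 to 28 reads. Scaled reads below are reads per 1000000 reads in islands, summed over a window, and cover is the share of the window's bases under an island. Markers of the lines and of other cell types were looked at over the same kind of window. ERBB2 was under islands over 99.2% of its window in SKBR3 and 100% in BT474, and the keratin genes KRT8 and KRT18 were covered by 47.8 to 51.9%. PGR, the gene of the progesterone receptor that BT474 cells express, was covered by 69.2% in BT474 and 5.45% in SKBR3. ESR1, the gene of the oestrogen receptor, differed less, at 26.6% in BT474 and 19.9% in SKBR3. CDH1, the E-cadherin gene, had no island in SKBR3 and was covered by 35.8% in BT474. EPCAM, another epithelial gene, was covered by 25.1% in SKBR3 and 20.1% in BT474. Genes of other cell types were not free of the mark, since CD3E was covered by 45.6% in SKBR3 and 13.3% in BT474. In the same order, PTPRC was covered by 26.8 and 11.4%, COL1A2 by 26.3 and 14.3%, and VIM by 6.49 and 10.7%. The part of such differences in the results below was not tested.

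Among the 9 inhibitors with islands in both lines, 7 differed in H3K4me1 reads. By edgeR's quasi-likelihood test with Benjamini-Hochberg adjustment over all 18838 windows tested, 5 were higher in SKBR3 and 2 were higher in BT474. SPRY2, which had no island in SKBR3, was also called higher in BT474, but a window at 0 in a line passes the minimum of reads only through the other line, and all 1408 such windows were called. Among all windows with islands in both lines, 69.8% of 17430 were called. With the windows at 0 included, 72.1% of all windows tested passed the same test. Of all windows tested, 30.0% were higher in SKBR3 and 42.1% were higher in BT474. With a difference of at least 2-fold also required, 3 inhibitors were higher in SKBR3 (SPRY4, SPRY1 and DUSP5) and 1 with a fold, DUSP4, was higher in BT474, together with SPRY2, which had no island in SKBR3 and was counted as past this limit. Under that rule 43.0% of all windows were called, 16.3% higher in SKBR3 and 26.7% higher in BT474. The median log2 difference, SKBR3 minus BT474, was 0.54 over the 9 inhibitors with islands in both lines and -0.18 over the 17430 such windows of all genes. Its median size without sign was 0.86 for the inhibitors and 0.84 for all windows.

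**Figure D1:**
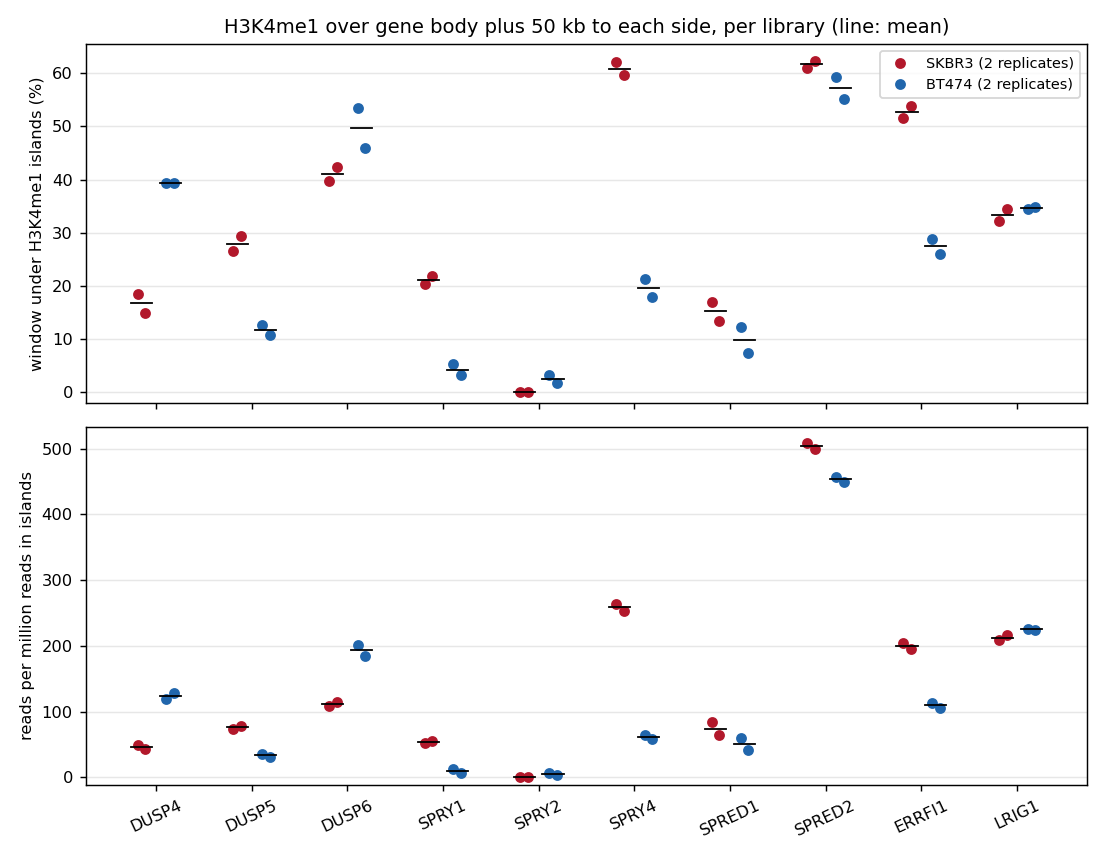
H3K4me1 over the window of each inhibitor. The upper plot gives the percent of the window under islands and the lower plot the scaled reads, with a point for each of the 2 replicates of SKBR3 (red) and BT474 (blue) and a line at their mean. SPRY4 has 264 and 252 scaled reads in SKBR3 against 65.0 and 58.2 in BT474, whereas the 4 points of LRIG1 lie between 209 and 226.

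At the level of the receptor, ERRFI1 carried more H3K4me1 in SKBR3 and LRIG1 did not pass the test. ERRFI1 (chr1:8064464-8086369, minus strand, GRCh37) had 204 and 195 scaled reads in the SKBR3 replicates and 114 and 106 in the BT474 replicates. Both SKBR3 libraries lay above both BT474 libraries, by 1.82-fold (log2 difference 0.86 ± 0.070 SE, adjusted p = 0.000666, n = 2 per line). The difference lay on both sides of the gene, where the downstream side also holds the neighbouring gene PARK7 (chr1:8014351-8045565). Of the 50 kb upstream, 72.7% was under islands in both SKBR3 libraries and 30.7 and 31.1% in BT474, and of the 50 kb downstream, 27.9% ± 1.41 (SD, n = 2) in SKBR3 and 11.4% ± 4.81 in BT474. Over the gene body itself the cover was 63.2% ± 5.81 (SD, n = 2) in SKBR3 and 56.1% ± 0.646 in BT474. With the gene body alone as the window, ERRFI1 no longer passed the test (log2 difference 0.066, adjusted p = 0.476).

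In that upstream stretch, the region chr1:8090601-8109200 of 18.6 kb held 766 and 710 reads in SKBR3 and 280 and 269 in BT474, a 2.91-fold difference (adjusted p = 0.00194 by edgeR's quasi-likelihood test over all 93127 regions tested). Regions farther upstream, of 7.2 kb and of 16.0 kb, were also higher in SKBR3, by 2.19-fold (adjusted p = 0.00194) and 1.83-fold (adjusted p = 0.00331). In all 4 libraries the start of ERRFI1 had an island of 2.6 or 3.0 kb beginning 0.232 or 0.432 kb upstream, with 8.15 to 10.5 scaled reads.

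LRIG1 (chr3:66429221-66551687, minus strand) had 209 and 216 scaled reads in SKBR3 and 226 and 224 in BT474. The groups did not overlap, but the log2 difference of -0.083 ± 0.053 SE did not pass the test (adjusted p = 0.219), and its direction turned when the libraries were scaled by TMM or by DESeq2 size factors (0.061 and 0.062, toward SKBR3). Its cover was highest in the gene, at 56.3% ± 3.00 in SKBR3 and 59.4% ± 0.808 in BT474 (SD, n = 2). In the 50 kb downstream, which lie inside the neighbouring gene SLC25A26, it was 10.6% ± 0.283 in SKBR3 and 8.78% ± 2.80 in BT474. No library had an island in the 50 kb upstream of LRIG1. Inside the gene some regions differed all the same. A region of 10.0 kb, 55.1 kb into the gene (chr3:66486601-66496600), held 219 and 228 reads in SKBR3 and 510 and 364 in BT474, which is 1.78-fold higher in BT474 (adjusted p = 0.00389 by edgeR). The next region, chr3:66497601-66507000, was 1.20-fold higher in BT474 (adjusted p = 0.0248). Of the 8 tested regions of LRIG1 with islands in both lines, 2 were higher in BT474, 1 was higher in SKBR3 and 5 were not called.

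Sprouty genes, whose products restrain RAS activation, had the largest differences among the inhibitors with islands in both lines (SPRY1 and SPRY4, both higher in SKBR3). SPRY4 (chr5:141689992-141706020, minus strand) had 264 and 252 scaled reads in SKBR3 and 65.0 and 58.2 in BT474. The SKBR3 libraries were 4.19-fold higher (log2 difference 2.07 ± 0.084 SE, adjusted p = 0.000149, n = 2 per line). Islands covered 62.0 and 59.7% of its window in SKBR3, which put it at the 98.6 and 97.8 percentiles of all gene windows, and 21.2 and 17.9% in BT474, at percentiles of 71.8 and 66.9. Cover was higher in SKBR3 in each part of the window, at 69.2% ± 1.13 against 20.4% ± 0 downstream, 69.4% ± 4.41 against 39.4% ± 7.94 in the gene and 49.8% ± 4.21 against 12.4% ± 2.83 upstream (SD, n = 2). Of its 6 tested regions with islands in both lines, 5 were higher in SKBR3 and 1 was not called. A further 5 had islands in SKBR3 alone and 1 in BT474 alone, and the latter, chr5:141710601-141712000 upstream of the start, held 81 and 70 reads in BT474. With flanks of 10 kb the log2 difference was 1.44 (adjusted p = 0.00158).

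The SPRY4 region with the most reads, chr5:141654401-141672400, lay past the gene's end, 33.6 kb downstream of the SPRY4 start, and held 1477 and 1405 reads in SKBR3 and 448 and 336 in BT474 (4.03-fold, adjusted p = 0.00194 by edgeR). The region over the start itself, chr5:141694401-141709200, held 863 and 906 reads in SKBR3 and 347 and 231 in BT474 (3.37-fold, adjusted p = 0.00194). Another region upstream, chr5:141735401-141748600, was 4.41-fold higher in SKBR3 (adjusted p = 0.00194). In all 4 libraries an island covered the start base of SPRY4, and it was the only inhibitor for which this held.

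SPRY1 (chr4:124317950-124324915, plus strand) had less of the mark than SPRY4 but, in this window, a larger ratio. It had 52.3 and 55.6 scaled reads in SKBR3 and 11.9 and 7.02 in BT474, a 5.67-fold difference (log2 difference 2.50 ± 0.295 SE, adjusted p = 0.00181). Over the gene body alone the log2 difference was 0.82 and did not pass the test (adjusted p = 0.0504), and with flanks of 10 and 100 kb it was 1.91 and 1.83, both called. For SPRY4 these log2 differences were 1.60 over the gene body, 1.44 with 10 kb flanks and 1.80 with 100 kb flanks, so the order of these genes depends on the window. Both tested regions with islands in the 2 lines were higher in SKBR3, chr4:124320601-124329200, which begins inside the gene (239 and 253 reads against 78 and 56, 4.03-fold), and chr4:124336201-124341000 downstream (236 and 202 reads against 44 and 50, 4.99-fold). A further 3 had islands in both SKBR3 libraries and in neither BT474 library, and passed the minimum of reads only through SKBR3. Their reads enter the 5.67-fold, in which any BT474 signal below the minimum of an island stands as 0. No library had an island within 1 kb of the SPRY1 start, the nearest beginning 2.65 to 3.85 kb into the gene.

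SPRY2 (chr13:80910111-80915261, minus strand) stood at the other end. No SKBR3 island fell in its window, the nearest lying 99.7 and 63.3 kb from its start, and the BT474 libraries had 6.41 and 3.51 scaled reads, from 120 and 53 reads. Since the files list only islands above a minimum, no fold is given. The call toward BT474 (adjusted p = 0.00219) sets these few reads against counts of 0 and is given as a description. A single island of 1.8 kb, 0.740 kb upstream of the start, with 61 and 53 reads, was present in both BT474 libraries, and a second in the gene in replicate 1 alone. The call did not hold with a replicate block (adjusted p = 0.0678) or with a window of 100 kb to each side (adjusted p = 0.266).

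The SPRED proteins bind neurofibromin and bring it to RAS at the membrane. SPRED2 (chr2:65537985-65659771, minus strand) had the highest reads of the 10, with 508 and 499.9 scaled reads in SKBR3 and 457 and 449 in BT474. Per kb of window this was 2.27 in SKBR3 and 2.04 in BT474, against 2.23 and 0.53 for SPRY4. Its gene body was covered by 77.8% ± 1.28 in SKBR3 and 79.4% ± 1.05 in BT474 (SD, n = 2), and its window ranked between the 98.2 and 98.4 percentiles of cover in all 4 libraries. The groups did not overlap, and the difference of 1.11-fold toward SKBR3 passed the test (log2 difference 0.15 ± 0.038 SE, adjusted p = 0.0207). That small difference no longer passed without BT474 replicate 1 (adjusted p = 0.0933), without BT474 replicate 2 (adjusted p = 0.130) and with the replicate block (adjusted p = 0.0691), and its direction turned over the gene body alone (-0.0063). Regions in the SPRED2 window that were higher in SKBR3 lay outside the gene, at chr2:65677201-65683400 upstream (273 and 273 reads against 126 and 101, 2.63-fold) and chr2:65488201-65497600 downstream (358 and 397 against 282 and 241, 1.57-fold). The downstream region lies inside the neighbouring gene ACTR2 (chr2:65454922-65498387), whose start is nearer to it than that of SPRED2.

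SPRED1 (chr15:38545037-38649450, plus strand) had 84.0 and 63.7 scaled reads in SKBR3 and 59.4 and 41.8 in BT474. The lines did not overlap, but the replicates within a line differed by almost as much as the lines did, and the log2 difference of 0.54 ± 0.230 SE toward SKBR3 did not pass the test (adjusted p = 0.0926). It passed without SKBR3 replicate 2 (adjusted p = 0.0222), with DESeq2 (adjusted p = 0.0252) and with the replicate block (adjusted p = 0.0138). It also passed at each other window size, with log2 differences of 1.35 over the gene body (adjusted p = 0.0114), 1.32 with 10 kb flanks (adjusted p = 0.0123) and 0.51 with 100 kb flanks (adjusted p = 0.0477). In all 4 libraries an island began 0.364 kb inside the SPRED1 start, and none had an island in the 50 kb downstream. Islands at 20.2 and 40.6 kb into the gene were present in both SKBR3 libraries (126 and 96 reads, 94 and 70 reads) and in neither BT474 library.

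Among the phosphatases, DUSP4 and DUSP6 carried more H3K4me1 in BT474 and DUSP5 more in SKBR3. DUSP4 (chr8:29190581-29208201, minus strand), a nuclear phosphatase, had 48.4 and 43.0 scaled reads in SKBR3 and 119 and 128 in BT474, 2.71-fold higher in BT474 (log2 difference -1.44 ± 0.097 SE, adjusted p = 0.000414, n = 2 per line). Cover of the gene body was 36.3% ± 1.61 in SKBR3 and 70.5% ± 4.82 in BT474 (SD, n = 2). The region chr8:29183401-29204000, which takes in all of the gene but its start, held 239 and 254 reads in SKBR3 and 847 and 739 in BT474 (2.95-fold, adjusted p = 0.00194 by edgeR). Of the 5 tested regions at DUSP4 with islands in both lines, 3 were higher in BT474 and 2 were not called. A further 4 had islands in BT474 alone and 1 in SKBR3 alone. No library had an island within 1 kb of the DUSP4 start, and the nearest lay 2.40 kb away in BT474 and farther in SKBR3.

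DUSP6 (chr12:89741012-89746278, minus strand), the cytoplasmic phosphatase of ERK, had 109 and 115 scaled reads in SKBR3 and 202 and 185 in BT474, 1.73-fold higher in BT474 (log2 difference -0.79 ± 0.076 SE, adjusted p = 0.00101). With flanks of 10 kb the log2 difference was -2.03 (adjusted p = 0.00504). The excess lay in a single stretch over and upstream of the start, chr12:89738801-89781400, of 42.6 kb, with 805 and 906 reads in SKBR3 and 2985 and 2194 in BT474 (2.76-fold, adjusted p = 0.00194). A region 42.1 kb downstream of the start, chr12:89697001-89704200, went the other way, with 313 and 240 reads in SKBR3 and 160 and 138 in BT474 (2.02-fold higher in SKBR3, adjusted p = 0.00963). The DUSP6 gene body was covered by 56.5% ± 2.69 in SKBR3 and 95.5% ± 6.42 in BT474 (SD, n = 2).

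DUSP5 (chr10:112257665-112271291, plus strand), a nuclear phosphatase of ERK, had 73.6 and 78.2 scaled reads in SKBR3 and 35.8 and 31.1 in BT474, 2.27-fold higher in SKBR3 (log2 difference 1.18 ± 0.112 SE, adjusted p = 0.000983). Islands covered 78.5% ± 3.11 of its gene body in SKBR3 and 42.6% ± 0 in BT474 (SD, n = 2). A region just upstream, chr10:112244601-112253600, held 289 and 275 reads in SKBR3 and 93 and 58 in BT474 (4.12-fold, adjusted p = 0.00198 by edgeR), and the region inside the gene, chr10:112258601-112269800, held 430 and 448 against 302 and 222 (1.84-fold, adjusted p = 0.00238). No base of the DUSP5 window was under islands of both BT474 libraries and of neither SKBR3 library, whereas 13.1 kb had islands in both SKBR3 libraries alone.

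Genes that neighbour the inhibitors differed between the lines as well, and for some inhibitors by the same amount. The median log2 difference of the other genes within 5 Mb was -1.39 around DUSP4, from 49 genes, where DUSP4 itself stood at -1.44. Around DUSP5 it was 1.13, from 32 genes, against 1.18 for DUSP5, and around ERRFI1 it was 0.71, from 95 genes, against 0.86. When this regional median was taken off in the fit, these genes no longer passed edgeR's test, with log2 differences of -0.05 for DUSP4 (adjusted p = 0.674), 0.05 for DUSP5 (adjusted p = 0.727) and 0.15 for ERRFI1 (adjusted p = 0.122).

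Other inhibitors passed the test in this fit, which called 2 of the 10 higher in SKBR3 and, with SPRY2 counted, 4 higher in BT474. Over all 18838 windows it called 6189 and 5659, so such a call is not particular to the inhibitors. SPRY4 kept a log2 difference of 1.81 (adjusted p = 0.000294, regional median 0.26 from 138 genes) and SPRY1 one of 2.10 (adjusted p = 0.00387, regional median 0.40 from 32 genes). DUSP6 kept -0.54 (adjusted p = 0.0039, regional median -0.25 from 30 genes). LRIG1, at -0.24, passed the test toward BT474 in this fit (adjusted p = 0.0177). SPRED1, at 0.28, did not pass it (adjusted p = 0.336, regional median 0.26 from 94 genes). SPRED2 turned to -0.42, higher in BT474 (adjusted p = 0.00125), since its neighbours stood at 0.58. SPRY2, at 0 in SKBR3, cannot be set against its surroundings in this way, and the median of the 19 genes around it was -1.50, toward BT474. Differences in the number of chromosome copies and in the density of the mark cannot be told apart in these counts.

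**Figure D2:**
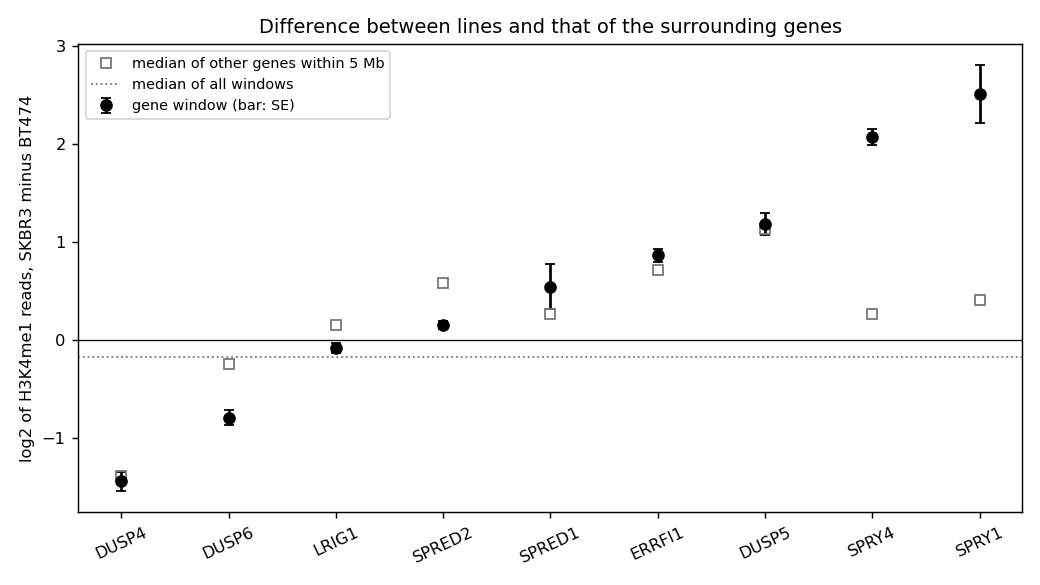
The log2 difference in H3K4me1 reads, SKBR3 minus BT474, for the 9 inhibitors with islands in both lines (filled points, bars are the SE), with the median of the other genes within 5 Mb (open squares) and the median of all windows (dotted line at -0.18). DUSP4, DUSP5 and ERRFI1 lie near their squares, and SPRY1 and SPRY4 lie 2.10 and 1.81 above theirs.

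Base by base, the 10 windows spanned 1435 kb, of which 264 kb (18.4%) was under islands of all 4 libraries. Bases under islands of both SKBR3 libraries and of no BT474 library made up 128 kb (8.89%), and the reverse 58.0 kb (4.04%). The same shares were not computed for all gene windows. SPRY4 held 40.2 kb of the SKBR3-only bases and ERRFI1 26.4 kb, while DUSP4 held 23.6 kb of the BT474-only bases. The SPRED2 window was the most alike, with 105 kb in islands of all 4 libraries. Cover of both SKBR3 replicates lay above that of both BT474 replicates at 6 inhibitors (36.7% of all windows), and the reverse held at 3 (41.9% of all windows).

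**Figure D3:**
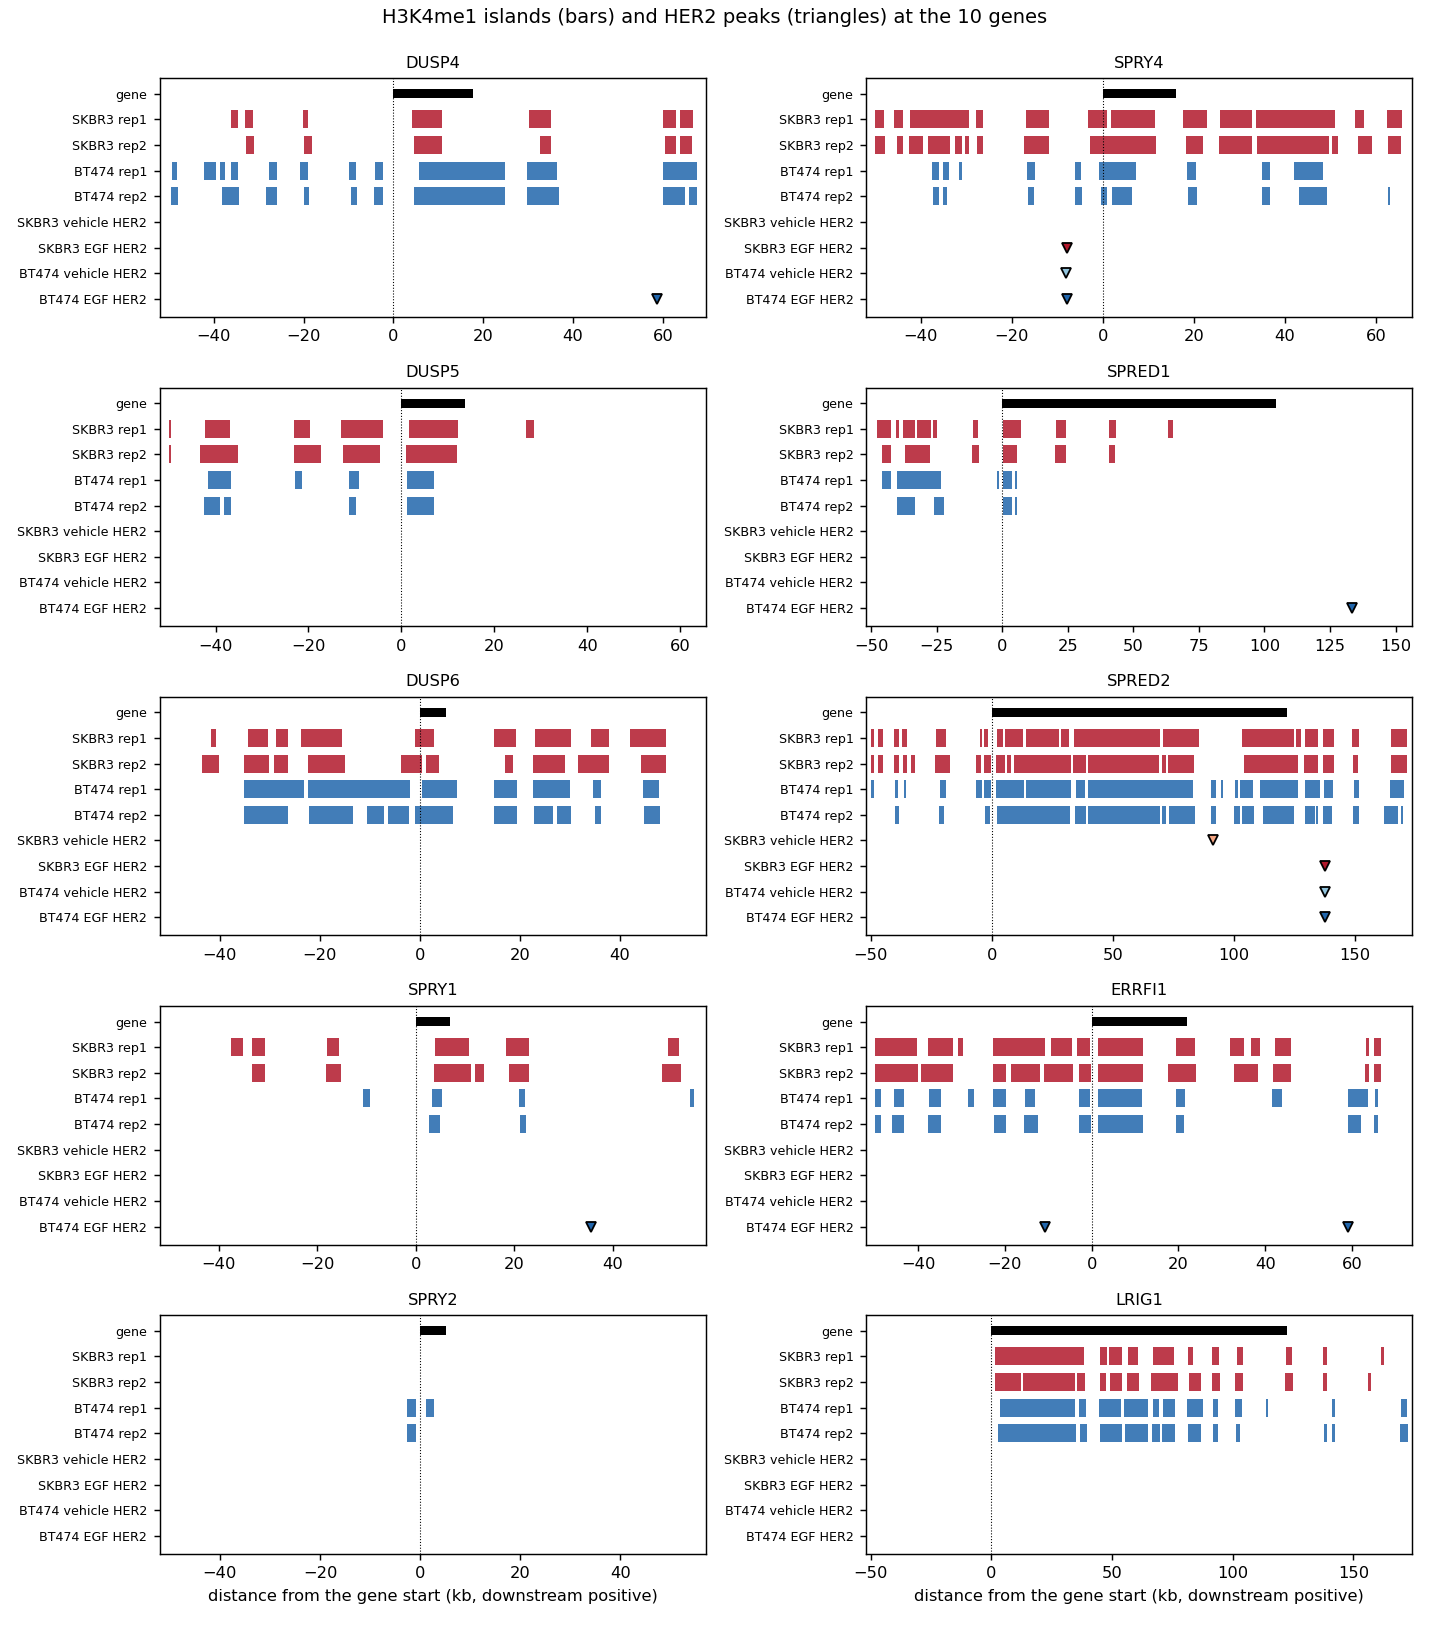
H3K4me1 islands (bars, red for SKBR3 and blue for BT474, 1 row per library) and HER2 peaks (triangles, 1 row per list) by distance in kb from the gene start, with the gene as a black bar. Islands fill the body of SPRED2 in all 4 libraries, SPRY4 has 40.2 kb with islands in SKBR3 alone, and the BT474 EGF row holds 7 of the 12 triangles.

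Of the merged regions, 98 lay in the windows and 82 could be tested. Of the 55 with islands in both lines, 19 were higher in SKBR3 and 7 higher in BT474, which is 47.3%, and over the genome 43.4% of such regions were called. The other 27 had islands in 1 line alone, 17 in SKBR3 and 10 in BT474, and every such region that is tested is called, here and over the genome. Both kinds added up to 36 higher in SKBR3 and 17 higher in BT474, where 70.8% of all regions tested were called (28.9% higher in SKBR3 and 42.0% in BT474). With 1 replicate of a line left out, a region with islands in that line alone cannot reach the minimum of reads in 2 libraries. Its call is then lost in any case, so counts without a replicate cannot show whether the calls rest on both. A total of 25 of the 98 had islands in SKBR3 libraries alone and 18 in BT474 libraries alone. Over the genome these were 23882 and 42120 of 113995 regions, more of them in BT474.

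**Figure D4:**
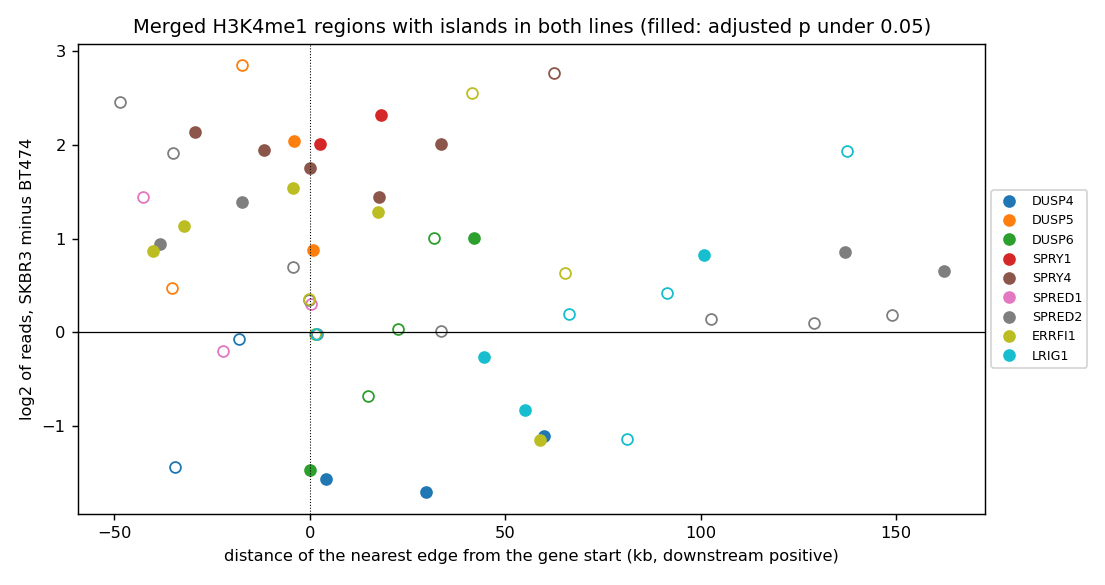
The log2 difference in reads, SKBR3 minus BT474, of the 55 tested regions with islands in both lines, by the distance in kb of the region's nearest edge from the gene start, coloured by gene, with filled points for an adjusted p under 0.05. The regions of SPRY4 and SPRY1 lie mostly above 0, and those of DUSP4 below; the 27 tested regions with islands in 1 line are not drawn.

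An island lay within 1 kb of the start in both SKBR3 replicates for 4 inhibitors and in both BT474 replicates for 6, where 34.2 and 48.2% of all protein-coding starts had one. DUSP6, SPRY4, SPRED1 and ERRFI1 had it in all 4 libraries (27.3% of all starts), and SPRY2 and SPRED2 had it in both BT474 replicates but not in both of SKBR3. DUSP4, SPRY1 and LRIG1 had none in any library, and DUSP5 had one in SKBR3 replicate 2 alone.

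Relatives of the inhibitors differed in both directions too, and their counts stand beside the 30.0% of all windows called higher in SKBR3 and the 42.1% in BT474. Of 11 genes of the same families, 5 were higher in SKBR3 (DUSP1, DUSP2, DUSP8, DUSP9 and LRIG2), 3 were higher in BT474 (DUSP16, SPRY3 and LRIG3) and 3 were not called (DUSP7, DUSP10 and SPRED3). DUSP8 had the largest log2 difference with a fold, at 3.96, while DUSP9 had no island in BT474 and SPRY3 none in SKBR3. These 2, and UBASH3B below, passed the minimum of reads only through the other line. All 1408 such windows were called, so their calls are a description only. LRIG3 stood at -1.16 and DUSP16 at -0.92. Of 10 other genes, listed here as receptor attenuators, 6 were higher in SKBR3 and 3 in BT474. The list holds ubiquitin ligases, SOCS proteins and phosphatases, and whether each of them attenuates the EGF receptor was not tested. The ligase CBL, which tags active EGFR for degradation, was higher in SKBR3 (1.39), and its relative CBLB was higher in BT474 (-2.58). SOCS5 (1.77), SOCS3 (0.85), PTPN1 (0.18) and PTPRJ (0.18) were higher in SKBR3, as was UBASH3B, which had no island in BT474. SOCS4 (-0.95) and CBLC (-0.21) were higher in BT474, and RNF41 was not called (adjusted p = 0.056 by edgeR). The median log2 difference was 0.39 for the relatives and 0.18 for the attenuators.

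HER2 peaks were few at the inhibitors. The 4 lists placed 12 peaks at 8 sites in the windows of 6 genes (74.7% of all windows held a peak in some list), while DUSP5, DUSP6, SPRY2 and LRIG1 had none in any list. In SKBR3, 1 peak was listed with vehicle and 2 with EGF, and in BT474, 2 with vehicle and 7 with EGF. Exact Poisson 95% intervals for these counts, which cover counting error only, run from 0.0253 to 5.57, from 0.242 to 7.22, from 0.242 to 7.22 and from 2.81 to 14.4. The lists themselves grew in BT474, from 8559 peaks with vehicle to 29326 with EGF, and held 2596 and 2520 in SKBR3. Per Mb of window the inhibitors had 0.697 and 1.39 peaks in SKBR3, where the whole lists had 0.855 and 0.83 per Mb of genome, and 1.39 and 4.88 in BT474, where the whole lists had 2.82 and 9.66. The genome-wide density lay within the interval of the windows in SKBR3, at 0.0176 to 3.88 with vehicle and 0.169 to 5.03 with EGF, and likewise in BT474, at 0.169 to 5.03 and 1.96 to 10.0 peaks per Mb.

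A peak with vehicle was listed at 1 of 10 inhibitors in SKBR3 (12.2% of all windows had one) and at 2 of 10 in BT474 (35.5%). With EGF these were 2 of 10 in SKBR3 (13.0%) and 6 of 10 in BT474 (72.7%). More peaks were listed with EGF than with vehicle at 1 of 10 in SKBR3, SPRY4 (9.11% of all windows), and at 4 of 10 in BT474, which were ERRFI1, SPRED1, SPRY1 and DUSP4 (63.6%). Without replicates, and with lists of such unequal length, these shares are a description of the 4 lists and no test of EGF.

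Of the 8 sites, 2 were in more than 1 list. The common part of the site upstream of SPRY4, chr5:141713864-141714062, the bases shared by its 3 peaks, is shown because HER2 was listed there in both lines. The sequence is that of the GRCh37 reference, plus strand, in lower case throughout, since it holds no match to CGTNTGC or its reverse complement GCANACG, the core of the sequence motif that the study describes for HER2.
SPRY4 upstream: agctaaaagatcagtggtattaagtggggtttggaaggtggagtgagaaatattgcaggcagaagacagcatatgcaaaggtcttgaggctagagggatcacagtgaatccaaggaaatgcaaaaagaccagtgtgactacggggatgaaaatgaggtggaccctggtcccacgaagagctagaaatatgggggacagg

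The SPRY4 site lies 7.81 kb upstream of the gene, inside the non-coding RNA gene SPRY4-AS1, and was listed in SKBR3 with EGF and in BT474 with both vehicle and EGF. The deposited score, whose scale is not given in the sources used here, was 56 in SKBR3 with EGF (17.5 percentile), 66 in BT474 with vehicle (51.2) and 18 in BT474 with EGF (3.03). In SKBR3 it was thus listed with EGF alone. The BT474 places come from lists of 8559 and 29326 peaks, so they cannot show whether EGF changed the site. In no library did an island reach this site, the nearest being 3.65 to 3.74 kb away in SKBR3 and 1.83 to 1.86 kb away in BT474, although the SPRY4 window around it was among the most covered in SKBR3. The core is held by 15.9% of SKBR3 EGF peaks, 19.4% of BT474 vehicle peaks and 11.8% of BT474 EGF peaks.

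The SKBR3 vehicle list had its single peak inside SPRED2, in an intron 91.5 kb from the start, with a score of 24.5 (16.3 percentile). Its sequence is shown for the unbroken run of whole GT units, 24 bp long, here in lower case like the rest.
SPRED2 intron, chr2:65568203-65568412: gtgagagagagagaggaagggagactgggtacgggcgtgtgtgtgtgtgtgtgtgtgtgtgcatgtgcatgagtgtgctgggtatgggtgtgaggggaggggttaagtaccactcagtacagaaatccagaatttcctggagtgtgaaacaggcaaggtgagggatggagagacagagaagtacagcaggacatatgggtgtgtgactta

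No SKBR3 island covered that peak, the nearest lying 5.59 and 7.99 kb away, while both BT474 libraries had an island over it. It was the only HER2 peak inside the body of an inhibitor gene.

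The remaining 5 sites were in the BT474 EGF list alone. At ERRFI1 there were a pair, 10.7 kb upstream of the gene, inside the non-coding RNA gene ERRFI1-DT (chr1:8097080-8097287, score 51, 44.8 percentile) and 36.9 kb downstream of it, inside PARK7 (chr1:8027282-8027519, score 31, 17.1 percentile). The upstream peak lay under islands of both SKBR3 libraries, in the region that was 2.91-fold higher in SKBR3, and outside the islands of BT474, the line in which HER2 was listed there. The downstream peak touched an island of BT474 replicate 2 only. The other sites were downstream of SPRED1 (29.0 kb past the gene, score 74.5, 65.3 percentile), of SPRY1 (28.6 kb, score 27.5, 12.3 percentile) and of DUSP4 (40.8 kb, score 47, 40.0 percentile), and none of these overlapped an island of any library.

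Of the 12 peaks, 4 lay in an island of their own line, 0 of 1 in SKBR3 with vehicle, 1 of 2 in SKBR3 with EGF, 1 of 2 in BT474 with vehicle and 2 of 7 in BT474 with EGF. Over the whole lists this held for 18.8, 17.4, 15.4 and 14.0% of peaks. The 4 peaks are not 4 separate sites, since a site in more than 1 list is counted once in each. These counts are therefore not independent of each other. Neither TGANTCA, the AP-1 motif searched, nor CCGGAAG, the ETS motif searched on both strands, was in any of the 12, where 5.04 to 6.32% and 0.501 to 0.631% of the peaks in the 4 lists hold them.

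From the gene starts, the nearest HER2 peak in the BT474 EGF list was a median of 88.4 kb away for the inhibitors and 35.3 kb for all protein-coding genes. With vehicle in BT474 these medians were 151.5 and 125 kb. In SKBR3 they were 753 and 530 kb with vehicle and 419.5 and 459 kb with EGF. SPRY4 had the closest peaks, at 7.81 to 7.84 kb in the 3 lists that hold its site, while in the SKBR3 vehicle list its nearest peak was 177 kb away. SPRY2 was the farthest in the BT474 EGF list, at 207 kb.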

How the data were processed

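Samples were grouped by cell line, treatment and antibody as given in their labels: 4 HER2 ChIP-exo peak lists, 4 H3K4me1 ChIP-seq island lists and 2 inputs, not used here. According to the methods of the study, single-end reads were aligned to hg19 with bowtie2, MACS2 gave the HER2 peaks, SICER gave the islands, input served as control, and blacklisted regions were removed. The submitters' processing notes instead name BWA 0.5.9, MACS 1.4.1 and SICER 1.1. For every island the deposited files give a raw read count, not scaled for depth, and no reads outside islands. For every HER2 peak the authors deposited a score on an unstated scale, which was ranked within its list. HER2 depth is unknown.

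The 10 genes and the other gene lists were chosen with earlier results of these data known, and all 10 are described. The annotation was GENCODE release 44 lifted to GRCh37. Island reads were shared out by the bases inside each window of gene body plus 50 kb to each side, or inside regions merged from overlapping or touching islands, and rounded. Windows of all protein-coding genes on the autosomes and X, and all regions, with at least 10 reads in at least 2 libraries were tested with edgeR 4.0.16 (R 4.3.3; quasi-likelihood test, library size as reads in islands, called at a Benjamini-Hochberg adjusted p under 0.05), with DESeq2 1.42.0 among the alternatives. The SE is the log2 difference divided by the square root of the test's F. Exact permutation of 2 against 2 libraries allows no p under 0.333, so cover was given without a test. The regional fit took the median log2 difference of other genes within 5 Mb as an offset. Regions were described where they were called and held at least 200 reads in a library, at most 3 for each gene and direction. The details of 1 HER2 site are not reported here. Peaks and islands were counted as overlapping from 1 bp. The fit was tested on simulated data. Replicates of a line differed by more than sampling noise (chi-square over degrees of freedom 14.6 in SKBR3 and 6.23 in BT474).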

Additional observations from a re-analysis of the deposited data

Results flagged for a closer look

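The HER2 site 7.81 kb upstream of SPRY4 was picked out because its place among the scores with EGF and with vehicle differed between the lines. In SKBR3 it was absent from the vehicle list and stood at the 17.5 percentile of scores with EGF. In BT474 it stood at the 51.2 percentile with vehicle and at the 3.03 percentile with EGF. The BT474 lists hold 8559 and 29326 peaks, so these places cannot show a change under EGF, and with 1 list per condition the difference between the lines was not tested.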

How the results depend on the processing

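For single genes, 114 of the alternative values kept direction and side of the threshold, 7 gained and 11 lost a call, and 5 reversed. For counts and shares, 103 stayed within bounds and 47 moved. The cause was not tested where none is given. The reversed values were SPRED2 over the gene body alone (-0.0063) and after the regional median (-0.42), and LRIG1 with TMM (0.061), DESeq2 size factors (0.062) and 100 kb flanks (0.015). Both scalings moved the median of all windows from -0.26 to -0.11. Inhibitors higher in SKBR3 fell from 5 to 3 over the gene body alone, 2 after the regional median and 3 with at least 2-fold required, an alternative chosen after seeing the data. Over all windows, 5643 higher in SKBR3 became 3593 with the gene body alone and 3062 with at least 2-fold, and 7938 higher in BT474 became 5032 with at least 2-fold. Leaving out each replicate gave 4807 to 8897 windows higher in BT474, 4518 to 5678 in SKBR3, 18 to 40 regions at the inhibitors higher in SKBR3 and 5 to 18 in BT474, and over all regions 9784 to 26450 in SKBR3 and 5183 to 42536 in BT474, the lone library being assumed to vary like the other line. Where a line kept 1 library, a region with islands in that line alone could not pass the minimum of reads. Part of any fall in that line's count was thus fixed in advance. With a replicate block no region was called (0 of 36 and 0 of 17 at the inhibitors, 0 of 26886 and 0 of 39075 in all, smallest adjusted p 0.0739 by edgeR). At an unadjusted p under 0.05 that block fit had 20 and 5 regions at the inhibitors and 14804 and 14650 in all, and DESeq2 without the block called 41, 18, 28688 and 40583. Under the block 5 inhibitor windows were called higher in SKBR3 and 2 in BT474, with SPRED1 gained and SPRED2 and SPRY2 lost. No label says whether the replicate numbers pair the samples. The replicate differences of the lines had a correlation of -0.0847 over 16684 windows, which cannot show whether replicates of the same number were prepared together. Median cover of the windows, 30.7% in SKBR3 and 23.5% in BT474, was 56.4 and 49.4% over the gene body, 39.5 and 31.8% with 10 kb flanks, 28.6 in SKBR3 with 100 kb flanks, and 28.6 and 17.1% with islands of at least 100 reads. Inhibitors with an island at the start numbered 2 and 1 at the start base, 9 and 10 within 5 kb and, in SKBR3, 8 at any transcript start. HER2 peaks over the gene body alone were 0 in SKBR3 with EGF, 0 in BT474 with vehicle and 0 in BT474 with EGF, and with 10 kb flanks 1 in each of these lists. With 100 kb flanks BT474 had 4 and 17. Among peaks at or above the median score, 0 remained in SKBR3 with vehicle, 0 with EGF and 2 in BT474 with EGF, and in lists of equal length BT474 had 1 and 0. The BT474 EGF peaks in islands fell from 2 to 1 by midpoint and to 1 when both replicates were required. The minimum read count of an island limits what can be called absent, so a window without islands may still hold the mark below that level.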
